A study of Mus musculus with 12 samples.

Results

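The bone morphogenetic protein (BMP) pathway was followed from its receptors to its target genes in primordial germ cells, which give rise to the gametes. The members were 10 of the 35976 gene symbols in the count table, chosen by name: the receptors Bmpr1a and Bmpr2, the signal transducers Smad1, Smad5 and Smad4, and the target genes Id1, Id2, Id3, Msx1 and Msx2. All 10 passed the filter on low counts. The cells came from female mouse embryos at E14.5 (days of gestation) and were isolated with an Oct4-GFP reporter, which all 4 groups carried, with RNA taken from 5000 cells. WT was wild type, HxD (Tet1HxD/HxD) was homozygous for a catalytically dead Tet1, V (Tet1V/V) was homozygous for a Tet1 that stalls at 5-hydroxymethylcytosine, and KO (Tet1-/-) was the Tet1 knockout, with 3 libraries each. TET1 is a dioxygenase that oxidizes 5-methylcytosine in DNA. Whether a group's libraries were separate embryos, litters or pools is not stated in the labels, and the p-values therefore cover only the variation among these samples, part of which may be technical.

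BMP ligands bind a complex of type I receptors (such as BMPR1A and ACVR1) and type II receptors (such as BMPR2, ACVR2A and ACVR2B). The type I kinase phosphorylates SMAD1, SMAD5 and SMAD9, which enter the nucleus with the common partner SMAD4. Among the genes they induce are the Id genes, whose proteins bind E proteins and keep them off DNA, the homeobox genes Msx1 and Msx2, and Smad6 and Smad7, which feed back on the receptors. In the early embryo BMP signals specify germ cells, and in the fetal ovary they act with retinoic acid when female germ cells enter meiosis.

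Promoter sequence is shown for the 4 target genes found in the RefSeq promoter table (build GRCm38.p6), whose levels are given below. Each line gives the 250 bases before the annotated start, read 5′ to 3′ on the gene's strand, in lower case, with the letters GGCGCC in capitals, a GC-rich element to which BMP-activated SMADs can bind.
Id2, chr12:25096093-25096342, minus strand: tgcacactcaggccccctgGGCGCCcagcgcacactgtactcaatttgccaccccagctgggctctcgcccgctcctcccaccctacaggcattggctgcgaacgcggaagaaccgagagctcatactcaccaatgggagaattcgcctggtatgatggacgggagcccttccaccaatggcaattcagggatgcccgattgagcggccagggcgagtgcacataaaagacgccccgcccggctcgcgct
Id3, chr4:136143572-136143821, plus strand: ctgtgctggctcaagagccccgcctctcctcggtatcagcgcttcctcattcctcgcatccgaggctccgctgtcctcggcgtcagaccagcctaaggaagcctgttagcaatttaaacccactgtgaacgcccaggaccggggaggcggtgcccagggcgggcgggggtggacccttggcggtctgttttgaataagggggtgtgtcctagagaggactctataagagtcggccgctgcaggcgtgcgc
Msx1, chr5:37824586-37824835, minus strand: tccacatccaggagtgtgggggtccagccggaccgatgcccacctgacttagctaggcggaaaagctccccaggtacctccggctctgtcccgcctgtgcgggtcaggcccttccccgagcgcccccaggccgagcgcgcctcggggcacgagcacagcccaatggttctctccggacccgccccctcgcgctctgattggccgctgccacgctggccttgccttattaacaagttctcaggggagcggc
Msx2, chr13:53472781-53473030, minus strand: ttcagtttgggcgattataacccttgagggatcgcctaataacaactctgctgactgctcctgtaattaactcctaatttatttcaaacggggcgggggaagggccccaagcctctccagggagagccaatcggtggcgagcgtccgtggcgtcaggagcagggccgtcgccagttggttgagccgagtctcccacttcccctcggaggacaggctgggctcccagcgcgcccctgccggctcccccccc
Of these, only the Id2 window held GGCGCC, 231 bases before the start. The motif reads the same on both strands. Among the 8 members in the table it was found in windows of 4, Bmpr1a, Bmpr2, Id2 and Smad5, and it was in 9.59% of all 32851 windows of this length (10.8% of 27025 genes). The Smad palindrome GTCTAGAC, also the same on both strands and not overlapping GGCGCC, was in none of the 8 and in 0.167% of all windows. Member windows were 60% to 78.8% G and C, and the background was not matched for this. Id1 and Smad4 were not matched.

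Total counts ranged from 18471158 to 29495313 per library. Between 12568 and 17614 genes had a count, and of 2936 genes with a mean of 1 to 5 CPM the share at 0 ran from 1.77% in HxD3 to 45.7% in KO3 and 43.7% in HxD1. CPM is the depth-normalised read count, here with library sizes scaled by TMM (trimmed mean of M values). Tet1 was at 91.4 to 215 CPM in the WT libraries and at 80.8 to 158.3 CPM in KO and these ranges overlapped. The sources used here do not say which exons the knockout removes, so reads of the whole gene do not check that label. Germ cell markers (8 genes, Pou5f1, Ddx4 and Dazl among them) each had counts in all 12 libraries and summed to 3250 to 3727 CPM in WT, 2751 to 3146 in HxD, 2868 to 3440 in KO and 2795 to 3294 in V. Pou5f1 is the Oct4 gene, whose reporter was used to isolate the cells, so its level is no separate check of the label. The labelled cell type was matched by the other markers, each with counts in all 12 libraries. Stra8, the meiotic entry gene, set library WT1 apart at 977.1 CPM against 423.0 and 247.1 CPM in WT2 and WT3.

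No member was called in any of the 3 mutants against WT (edgeR quasi-likelihood test, adjusted p over 16166 genes, threshold 0.05). At an unadjusted p under 0.05 the members numbered 1 in HxD, 2 in KO and 0 in V. DESeq2 called 1 member, Id1 in KO, and limma-voom 0. Over all genes with an adjusted p, DESeq2 called 92 of 15905 in HxD, 630 of 15626 in KO and 273 of 15626 in V. Limma-voom called 15, 187 and 20 of 16166. By edgeR, 0.0309% of all genes were called in HxD, 1.22% in KO and 0.155% in V, and 7.25%, 13.2% and 9.69% had an unadjusted p under 0.05. A count of 0 among 10 genes is thus near what these shares give. The median log2 fold change of the members was -0.18 in HxD, -0.12 in KO and -0.17 in V, beside -0.01, -0.02 and 0.00 over all genes tested. The 3 comparisons share the WT libraries. Of the 30 intervals (95%, unadjusted) for the difference of a member from WT, 27 held 0 and 21 lay wholly within 1 log2 unit of it.

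**Figure D1:**
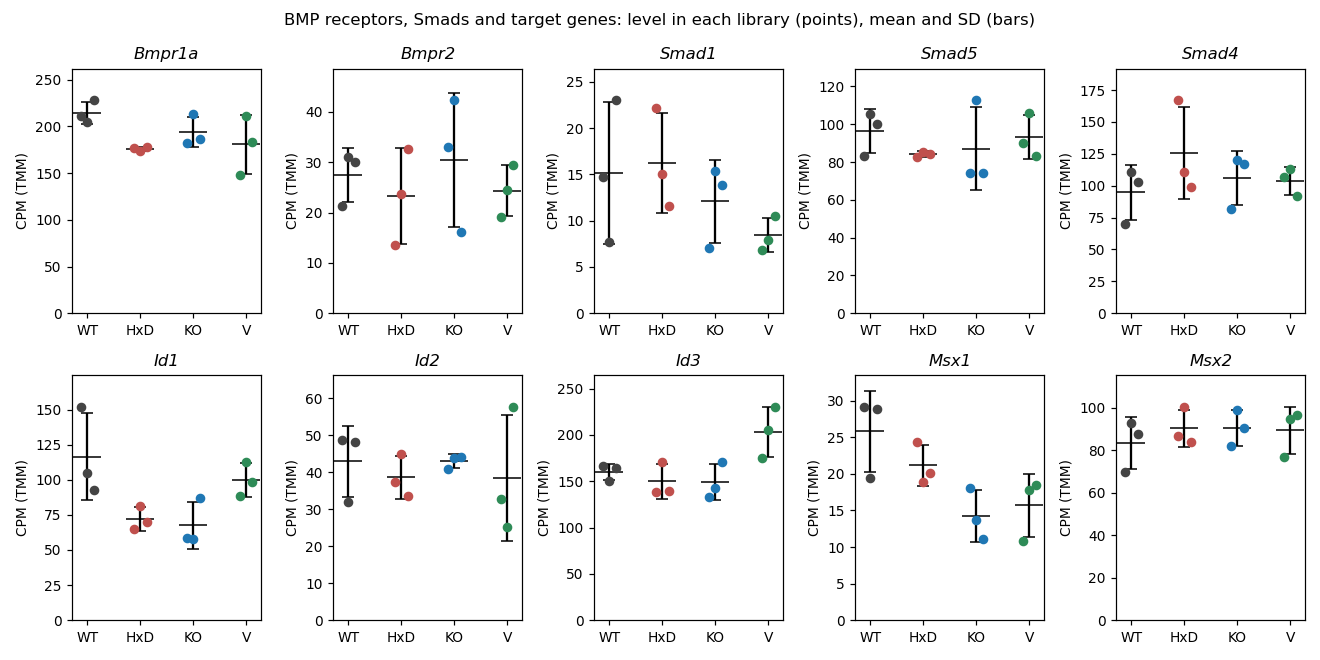
Level of each of the 10 members in CPM (y axis, from 0) in the 3 libraries of WT, HxD, KO and V (points), with the mean and SD (bars). Id1 is lower in all HxD and KO libraries than in any WT library, Msx1 is lower in KO and V than in WT, and Id3 is higher in V than in WT.

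**Figure D2:**
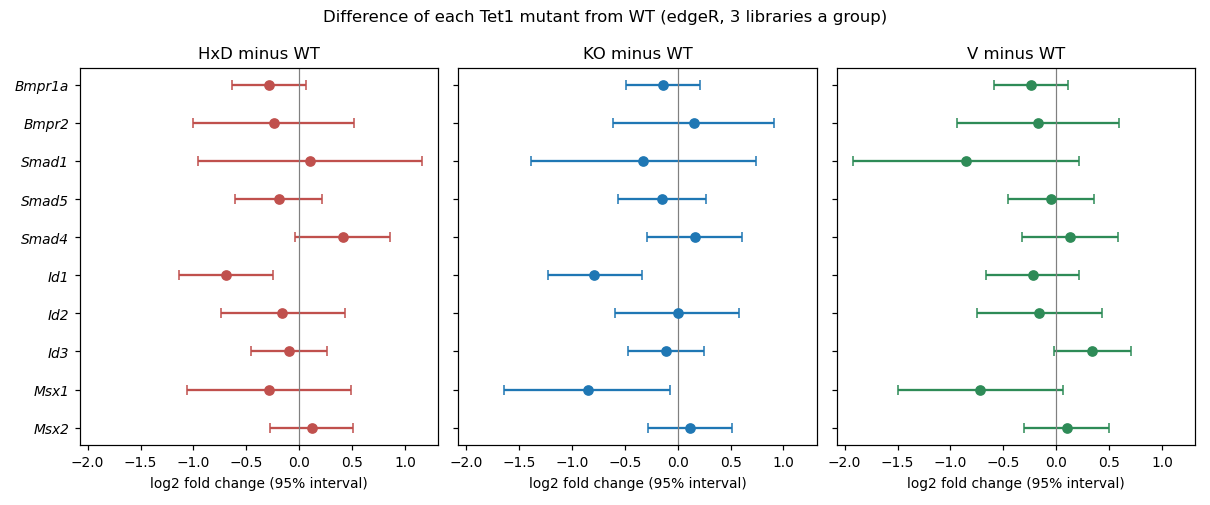
Log2 fold change of each member in HxD, KO and V against WT with its 95% interval (edgeR, 3 libraries a group). The intervals of Id1 in HxD and KO and of Msx1 in KO lie below 0, before adjustment over all genes, and those of Smad1 are the widest.

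Ordered by length-scaled level, the members ran Id3, Id1, Msx2, Bmpr1a, Smad4, Id2, Smad5, Msx1, Smad1 and Bmpr2. Ranges over the 12 libraries overlapped between neighbours in this order, except between Id1 and Msx2 and between Msx1 and Smad1.

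Scaled by exon length, Bmpr1a, the type I receptor for BMP2 and BMP4, was the more abundant of the member receptors at 31.64 ± 3.70 CPM per kb (mean ± SD over 12 libraries). Bmpr2, the type II receptor, was at 2.046 ± 0.634 CPM per kb. Another type II receptor, Acvr2b, was at 37.03 ± 6.26 CPM per kb, 11.9 to 35.3 times Bmpr2 within a library. Acvr1 and Acvr2a were at 12.25 and 6.207 CPM per kb, while Bmpr1b, another BMP type I receptor, had a count in 1 library. The ranges of Acvr2b and Bmpr1a overlapped, with Acvr2b the higher in 11 of 12 libraries, whereas those of Acvr2a and Bmpr2 did not.

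Bmpr1a was at 210.7, 204.4 and 227.8 CPM in WT and at 176.6, 173.4 and 177.6 CPM in HxD. It was at 182.4, 186.9 and 213.0 CPM in KO and at 148.0, 183.4 and 211.3 CPM in V. Every HxD library lay below every WT library, and the KO and V libraries overlapped WT. Against WT the log2 difference of HxD was -0.29 ± 0.17 (SE), that of KO -0.14 ± 0.17 and that of V -0.24 ± 0.17, and no change was called (adjusted p = 0.764, 0.785 and 0.697 by edgeR, n = 3). Bmpr2 varied more, at 21.3 to 31.0 CPM in WT, 13.6 to 32.6 CPM in HxD, 16.2 to 42.3 CPM in KO and 19.2 to 29.4 CPM in V. All groups overlapped. Its lowest values, 13.6 and 16.2 CPM, were in HxD1 and KO3, the libraries with the highest shares of low genes at 0 (43.7% and 45.7%), and the part of capture in these values was not tested. Its log2 differences were -0.24, 0.15 and -0.17 in HxD, KO and V, each with an SE of 0.37 (edgeR, adjusted p of at least 0.912).

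Among the 3 member Smads, Smad4 had the highest length-scaled level at 30.09 ± 6.64 CPM per kb, with Smad5 at 12.58 ± 1.78 and Smad1 at 2.507 ± 1.06 CPM per kb. Within a library Smad5 was 2.7 to 9.9 times Smad1. Smad9, the other BMP-regulated Smad, was at 0.9811 CPM per kb. Smad2, which carries activin and TGF-beta signals, was at 18.79 CPM per kb, and the inhibitory Smad6 and Smad7 were at 16.39 and 13.11 CPM per kb. Smad7 and Smad5 did not differ beyond their spread, and Smad7 was the higher in 4 of 12 libraries.

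Smad1 was at 14.7, 7.69 and 23.0 CPM in WT and at 6.85, 7.94 and 10.4 CPM in V. The V libraries were all near the lower end of the WT range and overlapped it. HxD was at 22.1, 15.0 and 11.6 CPM and KO at 7.02, 15.4 and 13.8 CPM. The log2 difference from WT was -0.85 ± 0.52 in V, with an interval from -1.92 to 0.22, and 0.10 ± 0.52 in HxD and -0.33 ± 0.52 in KO (edgeR, adjusted p = 0.639, 0.999 and 0.853, n = 3). Smad5 was steadier, at 83.5 to 105.6 CPM in WT, 82.9 to 85.6 CPM in HxD, 74.4 to 112.6 CPM in KO and 83.3 to 106.0 CPM in V. Its log2 differences of -0.19, -0.15 and -0.05 had intervals that all lay between -0.61 and 0.36 (edgeR, adjusted p of at least 0.821). Smad4, the shared partner, was at 70.2, 111.1 and 103.1 CPM in WT and at 166.8, 110.8 and 99.4 CPM in HxD. Its highest value was in HxD1 and its lowest in WT1, and the groups overlapped. KO was at 81.7 to 119.8 CPM and V at 91.7 to 113.1 CPM. The log2 difference of HxD was 0.41 ± 0.22, that of KO 0.16 ± 0.22 and that of V 0.13 ± 0.22 (adjusted p = 0.728, 0.817 and 0.949 by edgeR). Without WT1 the direction of Smad4 turned in KO (-0.01) and V (-0.04).

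The Id genes, direct BMP targets, included the most abundant members. Id3 was at 129.5 ± 22.4 and Id1 at 76.67 ± 22.9 CPM per kb, with Id3 above Id1 in 11 of 12 libraries, and Id2 was at 16.71 ± 3.69 CPM per kb. Id4, from the list of other targets, was at 7.271 CPM per kb. The E protein gene Tcf3, whose product ID proteins bind, was at 124.0 ± 8.75 CPM per kb, and its range overlapped that of Id3. Its relatives Tcf12 and Tcf4 were at 20.27 and 2.754 CPM per kb.

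In WT, Id1 was measured at 151.6, 105.0 and 92.6 CPM. In HxD it was at 65.0, 81.3 and 69.6 CPM and in KO at 58.2, 57.5 and 86.8 CPM. All 6 of these libraries lay below every WT library. In V it was at 88.6, 112.8 and 98.2 CPM, overlapping WT. The log2 difference from WT was -0.79 ± 0.22 in KO, with an interval from -1.23 to -0.34, and -0.69 ± 0.22 in HxD, from -1.14 to -0.25. Neither passed the adjusted threshold (edgeR, adjusted p = 0.0709 in KO and 0.417 in HxD, n = 3). V had -0.22 ± 0.22 (edgeR, adjusted p = 0.863). The KO difference was called by DESeq2 (adjusted p = 0.0219), with no filter on low counts (edgeR, 0.0132) and without KO3 (0.0446) or WT3 (0.0320), over a range of adjusted p from 0.0132 to 0.435 in 20 alternatives. Library WT1 held the highest Id1 value, and without it the difference was -0.55 in KO, -0.46 in HxD and 0.02 in V, with adjusted p of at least 0.435 (edgeR).

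Id3 showed another order of the groups. It was at 166.3, 150.3 and 163.9 CPM in WT and at 175.4, 204.9 and 229.8 CPM in V, so every V library lay above every WT library. HxD, at 138.4, 171.2 and 139.8 CPM, and KO, at 133.2, 142.7 and 170.5 CPM, overlapped WT. The log2 difference was 0.34 ± 0.18 in V, -0.10 ± 0.18 in HxD and -0.11 ± 0.18 in KO (edgeR, adjusted p = 0.540, 0.999 and 0.860, n = 3). Id2 was at 31.9 to 48.8 CPM in WT, 33.6 to 44.9 in HxD, 40.7 to 44.2 in KO and 25.1 to 57.5 in V. All groups overlapped, and its log2 differences of -0.16, 0.00 and -0.16 each had an SE of 0.29 (edgeR, adjusted p of at least 0.957).

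MSX1 and MSX2 are homeobox proteins induced by BMP, and Msx1 with Msx2 is known to support meiotic entry in the mouse ovary. Msx2 was at 36.00 ± 3.76 and Msx1 at 9.943 ± 3.08 CPM per kb, and their ranges did not overlap. Msx1 was at 29.1, 19.5 and 28.9 CPM in WT and at 18.1, 13.7 and 11.1 CPM in KO. V was at 10.8, 17.8 and 18.4 CPM, and HxD at 24.4, 18.96 and 20.2 CPM. Every KO and V library lay below every WT library, and HxD overlapped WT. The log2 difference was -0.85 ± 0.38 in KO, -0.72 ± 0.38 in V and -0.29 ± 0.38 in HxD (edgeR, adjusted p = 0.327, 0.556 and 0.999, n = 3), so none was called. Msx2 varied little, from 69.6 CPM in WT1 to 100.1 CPM in HxD2, with log2 differences of 0.12, 0.12 and 0.10 and intervals between -0.30 and 0.51 in the 3 mutants (edgeR, adjusted p of at least 0.859).

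Groups that did not overlap were seen for 2 of 10 members in HxD (Bmpr1a and Id1), 2 in KO (Id1 and Msx1) and 2 in V (Id3 and Msx1). Over all genes tested such groups made up 12.2% in HxD, 16.5% in KO and 16.2% in V, so the share among the members was near the background.

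Because 2 genes measured in 1 library share its scaling, the ratio within a pair was also taken, a choice made after the values were seen and given without a test. The length-scaled ratio of Id3 to Id1 was 0.996, 1.30 and 1.61 in WT. It was 1.93, 1.91 and 1.82 in HxD, 2.08, 2.25 and 1.78 in KO and 1.80, 1.65 and 2.12 in V. All 9 mutant libraries lay above the WT libraries, the nearest being V2 at 1.65 against WT3 at 1.61. Id1 and Id3 had already been seen not to overlap WT in some groups, and all mutants share the WT libraries. The share of all gene pairs that separate in this way was not computed. The ratio of Msx2 to Msx1 was 1.89, 3.76 and 2.39 in WT, 2.81 to 4.16 in HxD, 3.57 to 6.44 in KO and 4.13 to 5.61 in V, with only V wholly above WT. A shift in a ratio would not show which gene of the pair changed, and whether either ratio shifted was not tested. The ratios of Smad5 to Smad1, Acvr2b to Bmpr2 and Id1 to Id2 overlapped WT in all 3 mutants.

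**Figure D3:**
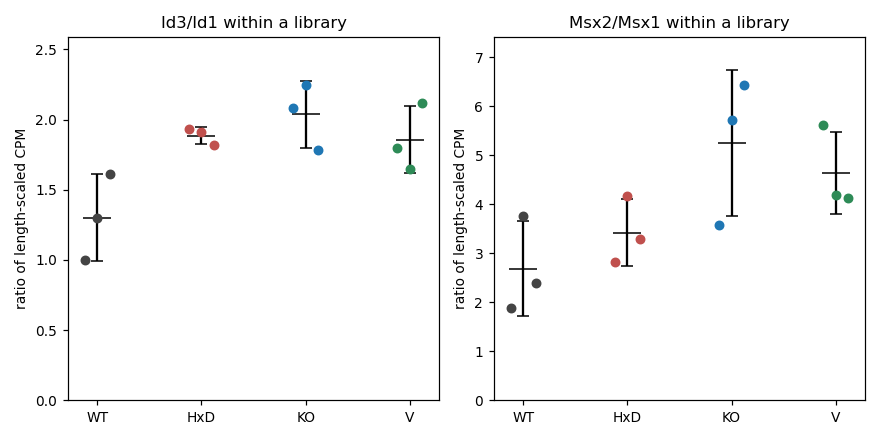
Ratio of length-scaled CPM of Id3 to Id1 (left) and of Msx2 to Msx1 (right) within each library (points), with the group mean and SD (bars), y axes from 0. The WT libraries reach 1.61 for Id3 to Id1, and the mutant libraries start at 1.65.

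Between mutants no member was called in KO against HxD, V against HxD or V against KO, where 0% of all genes was called in each (edgeR). Unadjusted p values under 0.05 numbered 0, 2 and 2 among the members, beside 3.18%, 2.02% and 4.62% of all genes, and DESeq2 and limma-voom called 0 members in each. Over all genes DESeq2 called 34, 19 and 22 and limma-voom 0 in each. Id1 was higher in every V library than in any HxD or KO library, by 0.47 ± 0.22 and 0.57 ± 0.22 on the log2 scale (edgeR, adjusted p = 1 and 0.945). Id3 was too, by 0.44 ± 0.18 and 0.45 ± 0.18 (edgeR, adjusted p = 1 and 0.945). Smad1 and Msx1 were lower in every V library than in any HxD library, with log2 differences of -0.95 ± 0.52 and -0.43 ± 0.38 (edgeR, adjusted p = 1 for both). The members whose groups did not overlap numbered 2 in KO against HxD (Bmpr1a higher and Msx1 lower in KO), 4 in V against HxD and 2 in V against KO, beside 8.65%, 9.10% and 11.1% of all genes.

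Of 62 other genes on the BMP and related lists, 47 passed the filter on low counts, and 1 was called in KO, 0 in HxD and 0 in V (edgeR). Unadjusted p values under 0.05 numbered 10, 3 and 6 in that order, beside 13.2%, 7.25% and 9.69% of all genes tested. Calls made up 1.22%, 0.0309% and 0.155% of all genes tested. Their median log2 fold change was -0.04 in KO, -0.08 in HxD and -0.11 in V. The called gene was Hey1, a repressor that BMP and Notch signals induce. It was at 19.4, 13.9 and 28.3 CPM in WT and at 38.6, 58.3 and 44.3 CPM in KO, rising by 1.19 ± 0.29 on the log2 scale (edgeR, adjusted p = 0.0388, n = 3). All 9 mutant libraries, from 32.3 CPM up, lay above WT, but the differences in HxD and V, 0.87 ± 0.29 and 0.98 ± 0.29, were not called (edgeR, adjusted p = 0.478 and 0.188). The KO call was lost on leaving out WT1, WT2, KO2, KO3, HxD3 or V3 (edgeR, highest adjusted p = 0.170). It was also lost without HxD1, KO1 and KO3 together (0.0995), with only WT and KO in the edgeR fit (0.0715) and by limma-voom (adjusted p = 0.0665).

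Of 11 listed ligands 3 passed the filter, led by Bmp7 at 20.2 to 48.7 CPM with overlapping groups, and Bmp2 was at 0 to 12.8 CPM. Of 10 other receptors 8 passed, and none was called. Tgfbr1, the type I receptor for TGF-beta, was at 139.2, 133.7 and 119.4 CPM in WT and at 54.1 to 94.3 CPM in all 9 mutant libraries. The log2 difference of HxD was -0.69 ± 0.20, that of KO -0.61 ± 0.20 and that of V -0.90 ± 0.20. None was called by edgeR (adjusted p = 0.332, 0.136 and 0.0577), and DESeq2 called all 3 (adjusted p = 0.0495, 0.0302 and 0.00113). None of 9 antagonists, led by Twsg1 and Fstl1, 13 intracellular regulators, led by Skil and Ski, or 3 E protein genes was called in any mutant against WT (edgeR).

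Gata2 and Zglp1 were the listed targets closest to the oogonial programme, ZGLP1 being a factor that acts downstream of BMP in the female germ cell fate. Gata2 was at 281.0, 262.2 and 309.2 CPM in WT, 216.4 to 255.4 CPM in HxD, 223.6 to 296.1 CPM in KO and 235.3 to 242.6 CPM in V. Every HxD and V library lay below every WT library, and KO overlapped WT. The log2 differences of -0.24, -0.14 and -0.25 in HxD, KO and V were not called (edgeR, adjusted p = 0.829, 0.784 and 0.668). Zglp1, chosen after its values were seen, was at 33.9, 31.6 and 19.9 CPM in WT and at 11.7, 16.4 and 4.05 CPM in KO. The groups did not overlap, the lowest value was in KO3, and the log2 difference of -1.41 ± 0.45 was not called (edgeR, adjusted p = 0.126). DESeq2 called it (adjusted p = 0.0490), and without HxD1, KO1 and KO3 the difference was -0.80. For reference, Stra8 fell by 2.90 on the log2 scale in KO and by 2.16 in V (edgeR, adjusted p = 0.000907 and 0.0338), and the call in V was lost by DESeq2 (adjusted p = 0.0565), among genes averaging 5 CPM or more (0.108), without HxD1, KO1 and KO3 together (0.0507) and without WT1, WT2, V1 or V3 (edgeR, highest adjusted p = 0.334). Rec8 and Gm4969 (Meiosin) fell in KO by 1.34 and 2.95 (edgeR, adjusted p = 0.0098 and 0.000696). The Rec8 call was lost without KO2 (edgeR, adjusted p = 0.0598) or WT1 (0.0786). Without HxD1, KO1 and KO3, which left KO2 alone, the Gm4969 difference was -2.39. In HxD the log2 differences of Stra8, Gm4969 and Rec8 were -1.98, -1.87 and -0.81 (edgeR, adjusted p = 0.0928, 0.122 and 0.435). In V those of Gm4969 and Rec8 were -1.84 and -1.11 (edgeR, adjusted p = 0.0636 and 0.0699). None of these was called in the main test, though each was in 1 or more alternatives. All mutant libraries lay below every WT library for the 3 genes.

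**Figure D4:**
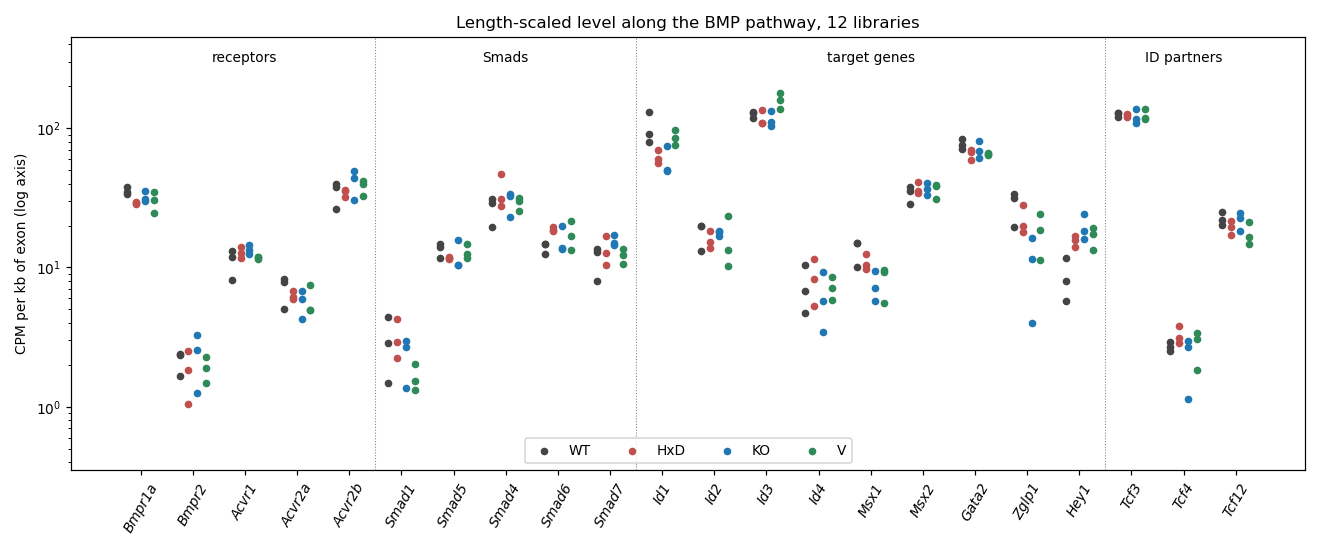
CPM per kb of exon (log axis) of receptors, Smads, target genes and the E protein genes that bind ID proteins, in the 3 libraries of each of 4 groups (points). Id3, Id1 and Tcf3 are the highest, and Bmpr2, Smad1 and Tcf4 are the lowest of the genes drawn.

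Over the 12 libraries, log2(CPM + 1) of the members was compared in 45 pairs. None of the 45 correlations passed adjustment, the smallest adjusted p being 0.777 (permutation test, 100000 resamples, two-sided, Benjamini-Hochberg). The highest was Id1 with Id3, at Pearson r = 0.61 (permutation p = 0.0357, adjusted p = 0.777) and Spearman rho = 0.64 (permutation p = 0.0296, adjusted p = 0.757). It was 0.63 after group means were subtracted, 0.75 without KO2 and WT1, and 0.61 with a pseudocount of 0.1.

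The Id and Msx genes are also expressed in somatic cells of the gonad, so markers of other cells were read beside them. In bulk RNA, fewer cells of a type and less RNA per cell cannot be told apart. Supporting cell markers (10 genes) summed to 19.4 to 54.3 CPM in WT, 13.2 to 31.9 in HxD, 15.7 to 17.9 in KO and 15.5 to 72.6 in V, and in all 12 libraries Irx3 was present, at 7.01 to 26.7 CPM. Foxl2 had a count in 5 libraries and reached 3.31 CPM. Stromal and mesonephric markers (8 genes) summed to 3.19 to 7.32 CPM in WT and to 3.13 to 16.5 CPM in the mutants. Of these, Pdgfra had a count in 10 libraries and reached 10.5 CPM, and Col1a1 and Col1a2 had counts in 8 each. Tcf21 and Dcn were at 0 in 10 libraries each. Endothelial markers (6 genes) summed to 2.44 to 19.9 CPM. Egfl7 had a count in all 12 libraries, at 0.103 to 16.5 CPM, and Tek in 11, while Emcn was at 0 in all 12. Blood markers (6 genes) summed to at most 26.0 CPM and immune markers (6 genes) to at most 22.6 CPM. The supporting cell sum was lower in every KO library than in any WT library, as were Id1 and Msx1. The number of these markers at 0 did not follow it, at 2, 8 and 7 of 10 in WT and 5, 2 and 7 in KO. Irx3 had the highest median of the 10 over the 12 libraries, 17.1 CPM, and Kitl came next at 1.78 CPM. The germ cell sum was lower in every HxD library than in any WT library, as were Id1 and Bmpr1a, and it overlapped WT in KO and V. The part of either sum in those differences was not tested.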

How the data were processed

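Counts per gene symbol, as deposited by the authors, were whole numbers and not normalized. Per the submitters' processing notes, the tools were featureCounts 2.0.3, SAMtools 1.9, STAR 2.7.10b, Trim Galore 0.6.7 and FastQC, and the builds named are GRCm39 and mm10, without a role. The sources used here give neither annotation, strand setting nor handling of multi-mapped reads, so overlapping and antisense genes cannot be told apart. Total counts were 18471158 to 29495313 per library, without molecular identifiers.

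Groups and replicate numbers came from the sample titles. The main test was edgeR 4.0.16 (R 4.3.3, quasi-likelihood, two-sided) with TMM, default filterByExpr and 1 fit of all 12 libraries by group, with Benjamini-Hochberg adjustment over 16166 genes. Standard errors (SE) were obtained as |log2 fold change| over √F. DESeq2 1.42.0 and limma 3.58.1 were alternatives. The scripts were tested on simulated data. Replicates of a group differed by more than sampling noise (lowest chi-square per degree of freedom 29.9). Length-scaled levels used the exon union of GENCODE M21 (GRCm38), which may not be the authors' annotation. Pathway genes were named if called against WT or among the 2 most abundant of their list. The members, lists and tests were chosen with earlier results of these data known.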

Additional observations from a re-analysis of the deposited data

How the results depend on the processing

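The members' differences from WT were recomputed under 20 alternatives, 600 values in all: 574 kept their direction and side of the threshold, 22 turned direction, all with an adjusted p of at least 0.856, and 4 (Id1 in KO) came past the threshold. Members called in KO numbered 1 by DESeq2 and 1 with no filter on low counts, and 0 to 1 with 1 library left out (1 without KO3 or WT3). In the other 5 comparisons they numbered 0 in every alternative. HxD1, KO1 and KO3, named from earlier results, had 43.7%, 27.1% and 45.7% of low genes at 0, beside 24.4% in V2, which was kept. With HxD1, KO1 and KO3 left out, the log2 fold change was 0.03 for Bmpr2 and -0.19 for Smad1 in HxD, and 0.02 for Smad1, 0.22 for Smad5 and 0.02 for Id2 in KO. With the replicate block Id2 in KO was 0.02. With 1 library left out, ranges that crossed 0 were -0.57 to 0.03 (Bmpr2), -0.21 to 0.53 (Smad1) in HxD, -0.16 to 0.45 (Bmpr2), -0.18 to 0.10 (Id2), -0.64 to 0.11 (Smad1), -0.01 to 0.32 (Smad4) in KO and -0.36 to 0.02 (Id1), -0.57 to 0.07 (Id2), -0.01 to 0.20 (Msx2), -0.04 to 0.26 (Smad4), -0.15 to 0.03 (Smad5) in V. The cause was not tested, beyond the fewer libraries in these fits.

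Counts over all genes in HxD, KO and V against WT (5, 197 and 25) were 7, 185 and 32 with the size factors of DESeq2, 71, 464 and 176 with no filter, 1, 137 and 5 among genes averaging 5 CPM or more, 92, 630 and 273 by DESeq2, 15, 187 and 20 by limma-voom, 20, 189 and 20 with only the groups compared, 6, 30 and 16 without HxD1, KO1 and KO3 (KO2 then stands alone and its variance is assumed to equal that of the other groups), and 1 to 35, 31 to 357 and 2 to 110 with 1 library left out. For KO against HxD, V against HxD and V against KO (0 each) they were 10, 1 and 5 with no filter, 34, 19 and 22 by DESeq2, 1, 0 and 1 with only the groups compared, 1, 0 and 0 with the size factors of DESeq2, and 0 to 3, 0 to 1 and 0 to 3 with 1 library left out. Same-numbered libraries did not deviate together (r from -0.17 to 0.14 over 18 pairs, 1 above 0.1, and 2 of 12 libraries closest to their own number). The labels do not say whether the numbers pair the samples, and with 3 libraries a group these values cannot decide it. With the replicate block the counts were 22, 285 and 73 against WT and 2, 0 and 1 between mutants, and 0 members were called. Depth sets a floor of 3 counts at 0.0996 to 0.168 CPM, below the level of every member in every library. The SE was 0.52 for Smad1 and 0.17 for Bmpr1a, and the cause of that difference was not tested.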

Other observations

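Other genes of the pathway moved in ways the naming rule did not cover and were chosen after their values were seen. Smad9, the BMP-regulated Smad of low level, was at 11.5, 17.2 and 5.34 CPM in WT and at 0.839, 0.704 and 0 CPM in KO, where the library at 0 was KO3. Its log2 difference of -4.45 ± 1.18 was not called (edgeR, adjusted p = 0.0561), and DESeq2 called it (adjusted p = 6.3e-05). It was at 4.70 to 8.67 CPM in HxD and 1.66 to 4.38 CPM in V, every V library lying below WT.

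Ppm1a, a phosphatase that acts on SMADs, was at 49.2, 71.3 and 87.5 CPM in WT and at 144.2, 126.0 and 94.8 CPM in V, a log2 difference of 0.81 ± 0.21 that was not called (edgeR, adjusted p = 0.120) and was called by DESeq2 (adjusted p = 0.0437). Acvr1b, an activin receptor, was at 18.6, 61.3 and 44.4 CPM in WT and at 63.5, 102.2 and 63.2 CPM in KO, a log2 difference of 0.88 ± 0.31 that was not called (edgeR, adjusted p = 0.185) and was called with no filter on low counts (0.0303). WT1 held the lowest WT value of both genes, and without it the difference was 0.61 for Ppm1a in V and 0.53 for Acvr1b in KO.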
